A study of Mus musculus with 2 samples.

Results

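Interferon-stimulated genes were followed in single-cell transcriptomes of cultured mouse adipose stromal cells. The set was a named list of 44 genes, drawn up for their known induction by interferon, with earlier results of these data known. All 44 were listed among the 28651 features of the inguinal white adipose tissue (iWAT) library and among the 29958 features of the interscapular brown adipose tissue (iBAT) library. By role, the list held 4 genes of the ISG15 system, 4 IFIT genes, 2 MX genes, 5 OAS genes, 2 antivirals of nucleotide metabolism, 2 membrane restriction factors, 4 transcription factors, 4 guanylate-binding proteins, 3 immunity-related GTPases, 4 nucleic acid sensors, 3 genes of the PARP and DTX3L group and 7 other interferon-induced genes. Both groups came from pooled stromal vascular fractions of wild-type C57BL/6N mice of 8 to 12 weeks per the labels, and the cells were grown to 80% confluency. The study's methods give a narrower age range. Per the labels, each library merged 4 tagged cultures, of which 1 was untreated and the others had 48 h with 5.5 nM of FGF1, of FGF2 or of FGF8, whereas the study's methods name vehicle, FGF1 and FGF2. No tag per cell was found in the files used here, so every value below pools the treatments in unknown proportions and none describes an effect of an FGF. Each depot was 1 library, so no test was made, and every interval given is an exact 95% interval that covers counting error only.

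Interferons are secreted warning signals. Type I interferons bind the receptor of IFNAR1 and IFNAR2, and the kinases JAK1 and TYK2 then activate transcription factors, STAT2 and IRF9 among them, that bind interferon-stimulated response elements. Interferon gamma acts through IFNGR1 and IFNGR2 and leads to binding at gamma-activated sites. The induced genes block viral entry, replication and protein synthesis, and many of them are also held at a low constitutive level by weak, tonic signalling in the absence of infection. Interferon signalling in adipose tissue is known for its link to inflammation of that tissue.

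The iWAT library held 29962 cell barcodes and 503611913 unique molecular identifiers (UMIs, one per captured RNA molecule), and the iBAT library held 28636 barcodes and 815235820 UMIs. The cell filter kept 29744 and 28215 cells. A cell barcode was shared by the libraries in 8 cases. Cells with a UMI of Pdgfra, a receptor that marks adipose progenitors, and without the markers of another class numbered 15973 in iWAT and 23216 in iBAT and are called Pdgfra-positive cells. All 10 stromal markers were at 10 UMIs or more per 1000000 UMIs (UPM) in them in iWAT and 9 of 10 in iBAT, where Lum was at 3.70. The libraries also differed in sex-linked transcripts, with Xist at 345 UPM in iWAT and 0.0505 in iBAT and the Y-linked Ddx3y at 1.20 and 81.9. Depot, library, the sex of the donor mice, the mix of treatments among the cells and the cultures of origin cannot be told apart in these data.

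The regulatory sequences next to the start sites of these genes are shown for 9 members whose values are followed below. The 200 bases before the start of the Ensembl canonical transcript (GENCODE M39, build GRCm39) are printed 5′ to 3′ on the strand of the gene. Capitals mark matches to an ISRE-like motif, GAAANNGAAA on either strand, or to a GAS-like motif, TTCNNNGAA, which reads the same on both strands.
Isg15, chr4:156285304-156285503, minus strand: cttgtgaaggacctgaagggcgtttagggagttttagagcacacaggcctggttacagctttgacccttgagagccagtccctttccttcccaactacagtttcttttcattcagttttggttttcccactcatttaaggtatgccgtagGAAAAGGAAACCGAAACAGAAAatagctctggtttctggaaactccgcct
Ifit1, chr19:34618071-34618270, plus strand: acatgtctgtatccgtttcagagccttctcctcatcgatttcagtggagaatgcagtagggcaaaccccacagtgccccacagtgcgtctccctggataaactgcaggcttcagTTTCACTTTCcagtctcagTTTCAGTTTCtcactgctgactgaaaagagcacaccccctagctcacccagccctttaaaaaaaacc
Ifit2, chr19:34527845-34528044, plus strand: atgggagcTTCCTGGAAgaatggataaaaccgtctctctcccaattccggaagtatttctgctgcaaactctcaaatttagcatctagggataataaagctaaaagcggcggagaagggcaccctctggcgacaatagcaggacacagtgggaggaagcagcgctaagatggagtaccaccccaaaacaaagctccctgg
Ifit3, chr19:34560699-34560898, plus strand: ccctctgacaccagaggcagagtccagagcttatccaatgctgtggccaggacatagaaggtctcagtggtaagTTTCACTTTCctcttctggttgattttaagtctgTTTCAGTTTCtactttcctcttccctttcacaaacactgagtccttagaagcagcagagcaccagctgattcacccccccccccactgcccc
Bst2, chr8:71990115-71990314, minus strand: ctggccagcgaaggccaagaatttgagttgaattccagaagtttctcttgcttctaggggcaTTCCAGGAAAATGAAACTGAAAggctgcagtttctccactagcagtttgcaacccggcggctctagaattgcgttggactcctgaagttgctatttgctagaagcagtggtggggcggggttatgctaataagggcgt
Ifitm3, chr7:140591283-140591482, minus strand: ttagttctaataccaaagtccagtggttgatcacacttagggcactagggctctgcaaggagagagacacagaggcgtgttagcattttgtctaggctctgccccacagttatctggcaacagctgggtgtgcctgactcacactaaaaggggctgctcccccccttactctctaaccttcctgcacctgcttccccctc
Irf1, chr11:53660641-53660840, plus strand: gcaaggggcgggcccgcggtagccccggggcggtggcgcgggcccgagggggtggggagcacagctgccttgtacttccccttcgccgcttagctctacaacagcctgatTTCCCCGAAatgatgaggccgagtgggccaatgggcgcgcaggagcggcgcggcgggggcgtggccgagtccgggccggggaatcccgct
Oas3, chr5:120915730-120915929, minus strand: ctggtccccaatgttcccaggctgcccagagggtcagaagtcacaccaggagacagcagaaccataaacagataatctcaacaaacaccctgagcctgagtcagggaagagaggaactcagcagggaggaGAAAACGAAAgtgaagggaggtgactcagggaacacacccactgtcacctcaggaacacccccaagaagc
Rsad2, chr12:26506452-26506651, minus strand: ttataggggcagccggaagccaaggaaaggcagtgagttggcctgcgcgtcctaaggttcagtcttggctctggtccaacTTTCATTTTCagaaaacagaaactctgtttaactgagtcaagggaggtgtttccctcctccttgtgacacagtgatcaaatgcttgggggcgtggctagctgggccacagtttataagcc

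In these lines Isg15 showed 3 overlapping ISRE-like matches on its own strand, and Ifit1 and Ifit3 showed 2 each, read from the opposite strand. In Bst2 the GAS-like match overlapped the first of 2 ISRE-like matches. Oas3 and Rsad2 carried 1 ISRE-like match each. Irf1 and Ifit2 carried only a GAS-like match, and Ifitm3 carried neither. Over the window from 250 bases before to 50 bases after the start, 22 of the 44 members (50%) held an ISRE-like match, compared with 835 of 21769 protein-coding genes (3.84%). A GAS-like match was found for 9 members (20.5%) and for 1919 genes (8.82%), 6 members held both motifs, and 19 held neither. A match is a run of letters and not a measured binding site. A window without a match says nothing about control from elsewhere. The 9 printed stretches do not stand for the whole list. Ifi44, Oasl2, Mx2, Irf7 and Oasl1 held no ISRE-like match, and their folds between depots, given below, ran from 8.32 to 26.7. Iigp1 and Ifi27 held 1 match each and stayed under 2-fold. Whether motif and level go together was not tested.

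Levels of these genes were first compared between depots over all kept cells. Every one of the 44 members was lower in iBAT than in iWAT in UPM, and for 43 of them the interval of the ratio lay below equality. Of the 43 members with at least 1 UPM in a library, 35 were 2-fold or more lower in iBAT, whereas 7.78% of 13991 features met that rule. No member was 2-fold or more higher in iBAT (0 of 43, with 6.53% of features past the fold in that direction). The median log2 ratio of the members, iBAT over iWAT, was −1.85, compared with 0.05 over all features. Summed over the list, members gave 0.271% of all UMIs in iWAT and 0.119% in iBAT.

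**Figure D1:**
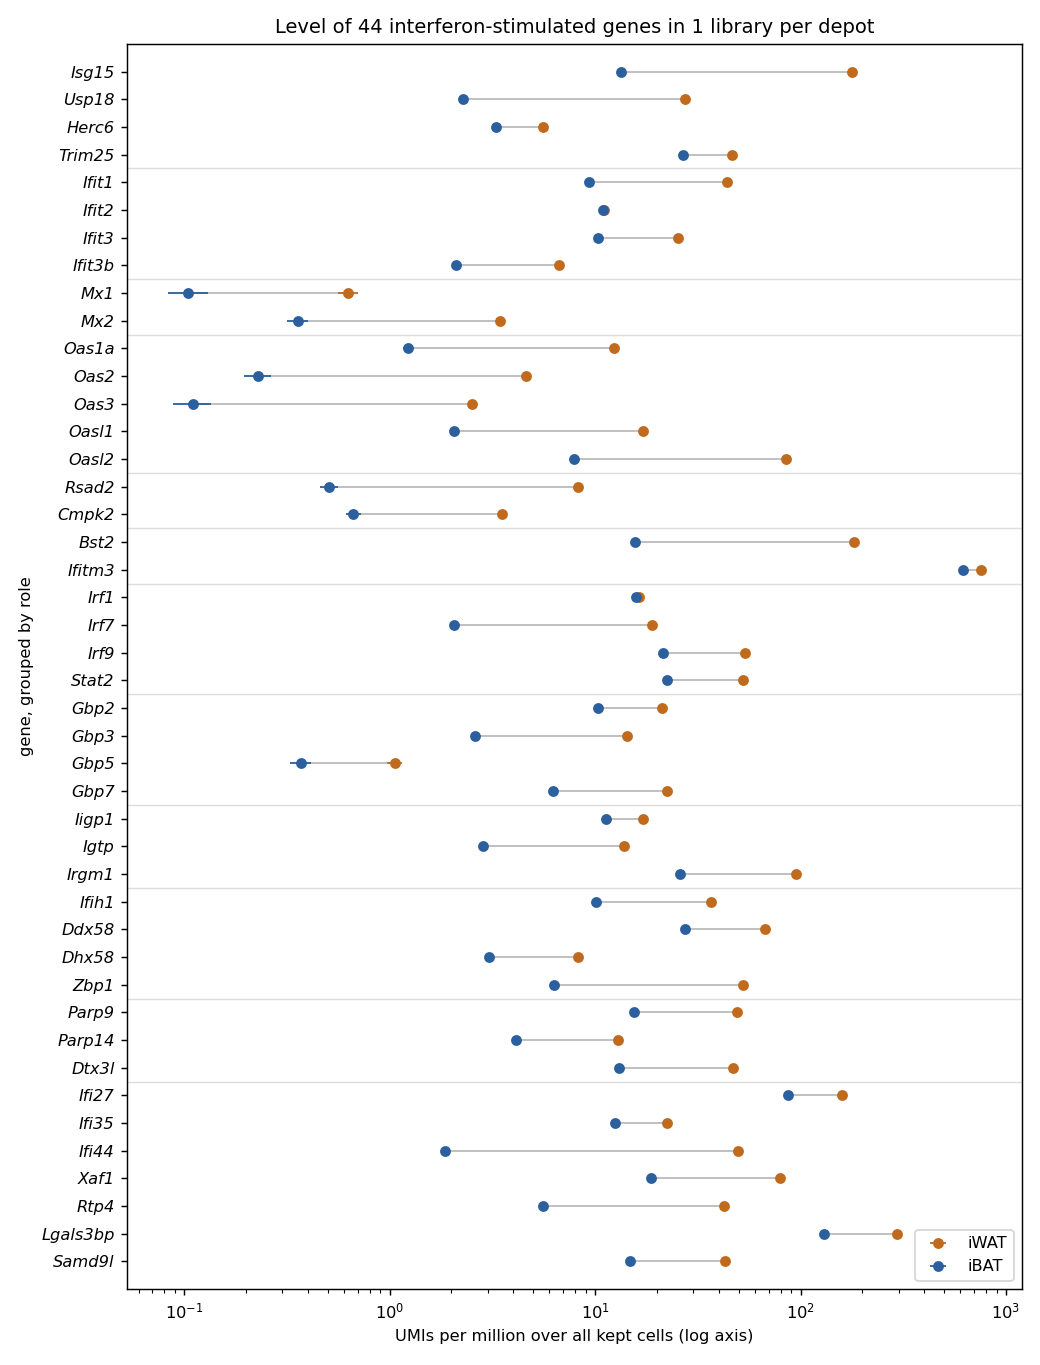
Level of each of the 44 genes in UMIs per 1000000 (UPM) over all kept cells (log axis) in the iWAT library (orange) and the iBAT library (blue), with exact 95% counting intervals and grey lines joining the libraries. Horizontal lines separate roles. The blue point lies left of the orange one for every gene, by 26.7-fold for Ifi44 and 1.01-fold for Ifit2.

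Genes of the ISG15 system covered a wide range. Isg15, a ubiquitin-like protein attached to other proteins, was at 178 UPM in iWAT and 13.3 in iBAT, a 13.4-fold difference (interval 13.1 to 13.6). Usp18, the protease that removes ISG15 and restrains the type I receptor, was at 27.3 and 2.27 (12.0-fold, 11.4 to 12.6). The ligases differed less. Herc6, the ISG15 ligase of the mouse, was at 5.58 and 3.30 (1.69-fold, 1.60 to 1.78), and Trim25, a ubiquitin ligase that acts on RIG-I, was at 46.3 and 26.8 (1.73-fold, 1.70 to 1.76).

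Members of the IFIT family, which bind foreign RNA ends, did not move alike between the depots. Ifit1 was at 43.9 UPM in iWAT and 9.36 in iBAT (4.69-fold, 4.57 to 4.82). Ifit3 was at 25.2 and 10.4 (2.43-fold), and Ifit3b at 6.69 and 2.10 (3.18-fold). Ifit2 was at 11.1 and 10.97, and its ratio of 1.01 had an interval of 0.979 to 1.05. It was the 1 member whose interval included equality. The 4 genes are neighbours on chromosome 19, and Ifit2 was the 1 of them without an ISRE-like match in the promoter window. Over the list, Ifi44 had the widest gap and no ISRE-like match either, and the part of the motif in these gaps was not tested. Of the 3′ end of Ifit3, 22.8% of 31-base words also occur in transcripts of other genes, chiefly Ifit3b, and of Ifit3b 23.2%, chiefly Ifit3, and how reads shared by this pair were counted is not given in the sources used here.

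The OAS family, whose active enzymes make the oligoadenylates that activate RNase L, and the MX GTPases gave some of the widest gaps. All 5 OAS genes were 2-fold or more lower in iBAT. Oasl2 was at 84.6 UPM in iWAT and 7.94 in iBAT (10.7-fold, 10.4 to 10.95), and Oasl1 at 17.1 and 2.06 (8.32-fold, 7.89 to 8.78). Oas1a was at 12.4 and 1.23 (10-fold, 9.35 to 10.7), although 70.0% of the words of its 3′ end are shared with other genes, chiefly Oas1g. Oas2 and Oas3 were sparse, at 4.59 and 2.51 UPM in iWAT, and their 181 and 87 UMIs in iBAT gave 0.229 and 0.110. Mx2 was at 3.46 and 0.358 (9.66-fold). Mx1, for which C57BL/6 mice are known to carry a defective allele, stayed under 1 UPM in both libraries, at 0.626 and 0.105.

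Rsad2 encodes viperin, which makes a chain-terminating nucleotide, and Cmpk2 is a mitochondrial nucleotide kinase encoded beside it on chromosome 12. Rsad2 was at 8.30 UPM in iWAT and 0.507 in iBAT (16.4-fold, 14.8 to 18.2). Cmpk2 was at 3.51 and 0.666 (5.28-fold, 4.78 to 5.83). The membrane restriction factors differed from each other. Bst2, or tetherin, which holds budding virus on the cell surface, was at 183 and 15.6 (11.7-fold, 11.5 to 11.9), whereas Ifitm3, which blocks fusion of viral and cell membranes, was at 754 and 616 (1.22-fold, 1.22 to 1.23).

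Of the transcription factors, Irf7, the amplifier of type I interferon production, was at 18.9 UPM in iWAT and 2.07 in iBAT (9.14-fold, 8.67 to 9.64). The factors that act directly in the type I response differed less, with Irf9 at 53.8 and 21.4 (2.51-fold) and Stat2 at 52.7 and 22.4 (2.35-fold). Irf1, a factor known for strong induction by interferon gamma, was at 16.4 and 15.8 (1.04-fold, 1.01 to 1.07). Among Pdgfra-positive cells its order turned, with 15 UPM in iWAT and 15.9 in iBAT (0.942-fold, 0.910 to 0.976). All 4 guanylate-binding proteins, GTPases that attack pathogen vacuoles, were 2-fold or more lower in iBAT over all kept cells. The folds were 2.05 for Gbp2, 5.48 for Gbp3, 2.86 for Gbp5 and 3.60 for Gbp7. Gbp2 fell short of 2-fold among Pdgfra-positive cells, at 18.2 and 10.1 (1.80-fold, 1.74 to 1.87). Among the immunity-related GTPases, Irgm1 was at 95.4 and 25.9 (3.68-fold) and Igtp at 13.8 and 2.86 (4.82-fold), while Iigp1 was at 17.1 and 11.3 (1.52-fold).

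The sensors of foreign nucleic acid were all 2-fold or more lower in iBAT. Zbp1, which recognises Z-form nucleic acids and can start necroptosis, was at 52.4 UPM in iWAT and 6.32 in iBAT (8.30-fold, 8.05 to 8.55). The RNA helicases Ifih1 (MDA5), Ddx58 (RIG-I, named Rigi in GENCODE) and Dhx58 (LGP2) differed by 3.61-fold, 2.44-fold and 2.72-fold. Parp9 and its partner Dtx3l, which share a start region and overlap on opposite strands, differed by 3.19-fold and 3.61-fold, and Parp14 by 3.15-fold.

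Of the remaining 7 members, Ifi44 had the widest gap of the whole list over all kept cells, with 49.8 UPM in iWAT and 1.87 in iBAT (26.7-fold, 25.3 to 28.1). Among Pdgfra-positive cells, which leave out the epithelial cells of iWAT, it was at 39.6 and 1.80 (21.99-fold, 20.7 to 23.4), behind the sparse Oas3 (40.4-fold, 29.9 to 55.9) and Oas2 (30.5-fold, 25.3 to 37.0). Rtp4 was at 42.6 and 5.58 (7.63-fold), Xaf1 at 79.1 and 18.6 (4.24-fold) and Samd9l at 43.1 and 14.9 (2.90-fold). Lgals3bp, a secreted glycoprotein, was at 295 and 129 (2.28-fold). Ifi27, a mitochondrial protein, was at 159 and 87.2 (1.83-fold) and Ifi35 at 22.4 and 12.6 (1.78-fold). Thus 8 of the 43 members tested stayed under 2-fold, namely Herc6, Trim25, Ifit2, Ifitm3, Irf1, Iigp1, Ifi27 and Ifi35. Ifitm3 alone gave 27.8% of the member UMIs in iWAT and 51.6% in iBAT.

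The second question was how much of each gene's UMIs lay in the few cells with the highest summed member level. Pdgfra-positive cells of each library were ranked by the summed member UMIs over the depth of the cell, and the share of each gene's UMIs in the top 1% of cells was taken. The ranking uses the members themselves, so these shares describe the cells and test nothing. The top 1% were 160 cells in iWAT and 232 in iBAT. In iWAT the last cell inside had 6638 UPM summed over members and the first outside 6623, compared with a median of 2555. In iBAT these values were 3831, 3824 and 1080. There was no gap at the boundary, and 112 iWAT cells and 130 iBAT cells lay within 10% of it. The top cells held 0.989% and 0.968% of the UMIs of all genes, and their median depth was 18461 UMIs compared with 18053 in the other iWAT cells and 26394 compared with 27708 in iBAT.

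A share under 5% is called tonic, a share of 25% or more confined, and the rest intermediate, for genes with at least 100 UMIs in Pdgfra-positive cells. In iWAT 23 of the 44 members were tonic, as were 99.5% of 15442 features, and 6 were confined, as were 0.0777% of features. In iBAT 9 of 42 members were tonic, with 99.4% of 17257 features, and 12 were confined, with 0.122% of features. After cells were thinned to 10000 UMIs, 5 of 43 members were confined in iWAT and 6 of 39 in iBAT. The wider gap in confined counts between the libraries was thus not kept at equal depth. Tonic members then numbered 24 in iWAT and 9 in iBAT. Shares and calls of single genes below are those without thinning. The iBAT count of confined members was also 6 with the top 0.5% of cells, and 16 with the top 2%. The count of tonic members was 11 in iWAT with the top 2%, and 15 and 5 in iBAT with the top 0.5% and 2%. The median share of the members was 4.43% in iWAT and 12.2% in iBAT, compared with 0.954% and 0.935% over all features. The share was larger in iBAT for 38 of the 42 members with enough UMIs in both libraries (46.2% of features). Leaving a gene out of its own ranking moved its share by at most 1.16 percentage points in iWAT and 3.60 in iBAT.

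**Figure D2:**
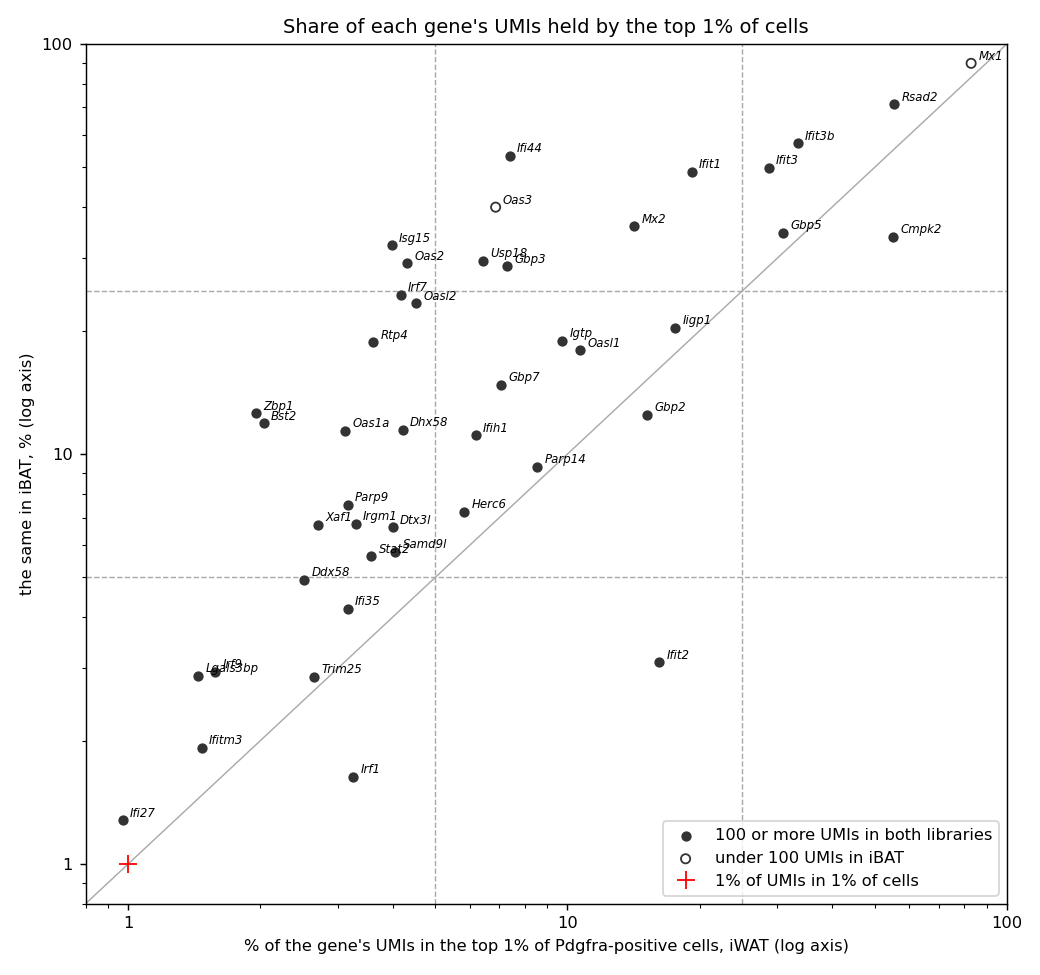
Share of each gene's UMIs in the top 1% of Pdgfra-positive cells, in percent, in iWAT (horizontal, log axis) and iBAT (vertical, log axis). Open circles have under 100 UMIs in iBAT, dashed lines mark 5% and 25%, the diagonal marks equal shares, and the red cross marks the share that an even spread over cells of equal depth would give. Most genes lie above the diagonal, with Ifit2 and Irf1 far below it.

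The 5 most confined genes of each library stood at no more than 4.28 UPM in the other 99% of cells of iWAT and 4.87 in iBAT. In iWAT the 5 highest shares were those of Mx1 (82.9%, interval 75.1 to 89.1), Rsad2 (55.4%, 53.2 to 57.5), Cmpk2 (55.1%, 51.9 to 58.2), Ifit3b (33.4%, 31.3 to 35.6) and Gbp5 (31.01%, 26.2 to 36.2). In iBAT they were those of Rsad2 (71.2%, 65.1 to 76.8), Ifit3b (57.2%, 54.4 to 59.9), Ifi44 (53.4%, 50.5 to 56.3), Ifit3 (49.9%, 48.7 to 51.1) and Ifit1 (48.8%, 47.5 to 50.1). Ifit3, Ifit3b, Rsad2, Cmpk2 and Gbp5 were confined in both libraries. Even inside the top cells these genes were uneven. Rsad2 had a UMI in 104 of the 160 iWAT top cells (65.0%), compared with 4.41% of the other cells, and the 10 cells with most Rsad2 held 27.7% of its UMIs. In iBAT Rsad2 had a UMI in 62 of 232 top cells (26.7%), compared with 0.278% of the others. For Mx1 the 10 highest iWAT cells held 52.8% of 123 UMIs. Mx1 and Oas3 had under 100 UMIs in iBAT and received no call there.

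At the other end stood genes with low shares, of which Ifi27 came nearest to the share of total RNA. In iWAT the 5 lowest shares were those of Ifi27 (0.972%, interval 0.886 to 1.06), Lgals3bp (1.45%, 1.37 to 1.52), Ifitm3 (1.47%, 1.42 to 1.52), Irf9 (1.58%, 1.39 to 1.79) and Zbp1 (1.95%, 1.76 to 2.17). In iBAT they were those of Ifi27 (1.28%, 1.19 to 1.37), Irf1 (1.63%, 1.40 to 1.89), Ifitm3 (1.92%, 1.88 to 1.96), Lgals3bp (2.87%, 2.76 to 2.99) and Trim25 (2.87%, 2.63 to 3.12). Trim25, Ifitm3, Irf1, Irf9, Ddx58, Ifi27, Ifi35 and Lgals3bp were tonic in both libraries. Ifi27 was the 1 member whose level was not higher in the top iWAT cells, with 159 UPM there and 162 in the other cells.

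Between these ends, the calls differed between the libraries. Isg15 and Oas2 were tonic in iWAT and confined in iBAT. Isg15 had 3.98% of its UMIs in the top cells of iWAT (interval 3.82 to 4.15) and 32.3% in those of iBAT (31.3 to 33.3). Isg15 in the other 99% of cells was at 178 UPM in iWAT and 8.85 in iBAT, a 20.2-fold difference, whereas in the top cells it was 740 and 431, or 1.72-fold (1.62 to 1.82). The intervals of Oas2 crossed both limits, with 4.32% in iWAT (3.39 to 5.42) and 29.2% of 120 UMIs in iBAT (21.2 to 38.2). Another 13 members, Oas1a, Oasl2, Bst2, Irf7, Stat2, Irgm1, Dhx58, Zbp1, Parp9, Dtx3l, Xaf1, Rtp4 and Samd9l, were tonic in iWAT and intermediate in iBAT. Bst2, for example, had a share of 2.04% in iWAT and 11.9% in iBAT. Usp18, Ifit1, Mx2, Gbp3 and Ifi44 were intermediate in iWAT and confined in iBAT. Herc6, Oasl1, Gbp2, Gbp7, Iigp1, Igtp, Ifih1 and Parp14 were intermediate in both.

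Ifit2 went the other way, with 16.2% of its UMIs in the top cells of iWAT (interval 15 to 17.4) and 3.10% in those of iBAT (2.72 to 3.53). Among the top cells it was at 200 UPM in iWAT and 35.4 in iBAT (5.65-fold, 4.84 to 6.61), although the other cells held 10.3 and 10.8. Its neighbours Ifit1 and Ifit3 had 48.8% and 49.9% of their UMIs in the same iBAT cells. A single iWAT cell held 115 Ifit2 UMIs, and the 10 highest cells held 10.9% of the gene's UMIs. In iWAT an ISRE-like match was held by 4 of 6 confined, 7 of 15 intermediate and 11 of 23 tonic members. In iBAT these counts were 8 of 12, 11 of 21 and 2 of 9. Over all members it was 22 of 44, and over protein-coding genes 3.84%. Whether the motif goes with the calls was not tested.

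**Figure D3:**
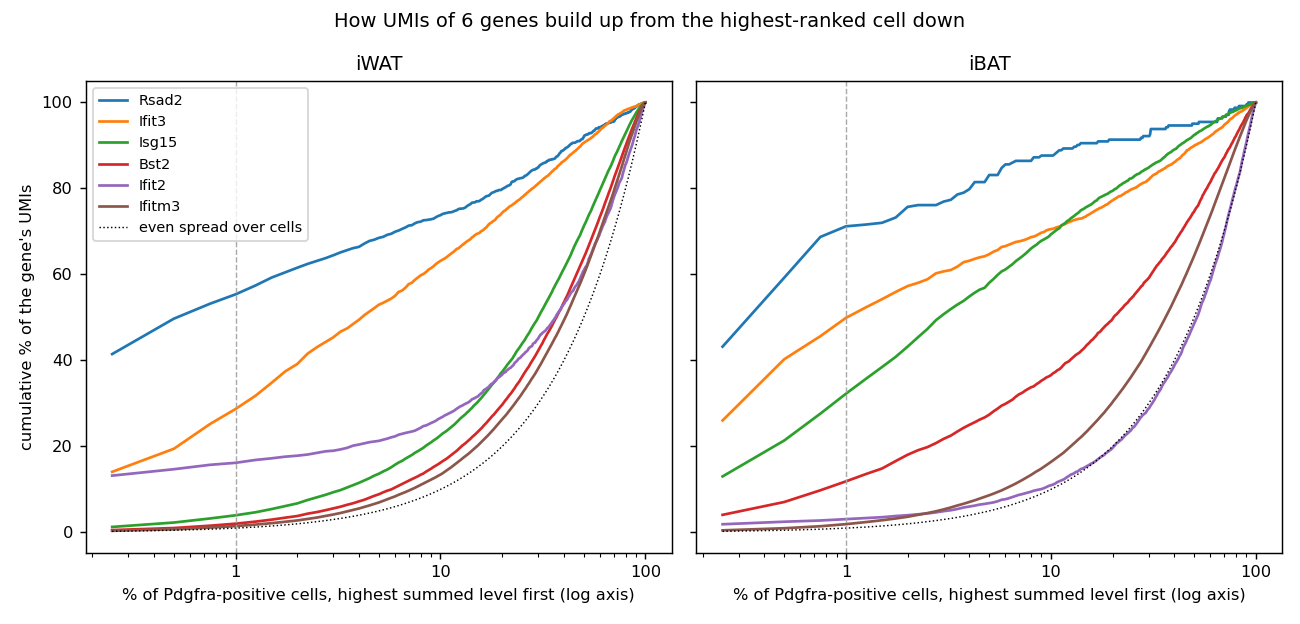
Cumulative percent of the UMIs of 6 genes (vertical) over Pdgfra-positive cells taken from the highest summed member level down (horizontal, percent of cells, log axis), with the dotted line for an even spread and the dashed line at 1%. The top 10% of cells hold 22.6% of Isg15 UMIs in iWAT and 69.3% in iBAT, and 13.5% and 16.4% of Ifitm3 UMIs.

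The depot gap was then split into the top cells and the rest. Over all Pdgfra-positive cells 34 of 43 members were 2-fold or more lower in iBAT (6.54% of features) and 0 were higher (5.84% of features). Without the top 1% it was 33 of 42 (6.55% of features), with a median log2 ratio of −1.97. Within the top 1% it was 18 of 44 (9.73% of features), with a median of −0.90. The ratio lay nearer to equality in the top cells than in the rest for 40 of the 44 members (40.1% of features). The top cells were picked by the UMIs of these same genes, so this count is a description. For a gene lower in iBAT in both sets of cells, it largely restates the larger iBAT share given above and is not a second result. The exceptions were Ifit2, Irf1, Cmpk2 and Gbp2. Cmpk2 was 8.90-fold lower in iBAT among the top cells (7.35 to 10.8) and 3.79-fold lower among the rest. Rsad2 kept a wide gap in both, 14.7-fold (12.5 to 17.3) in the top cells and 29.9-fold in the rest. Ifitm3 was the 1 member with a higher level in iBAT top cells, at 1257 UPM compared with 1120 in iWAT. The boundary of the top 1% was set in each library and lay at different summed levels, so these are not cells of equal score.

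**Figure D4:**
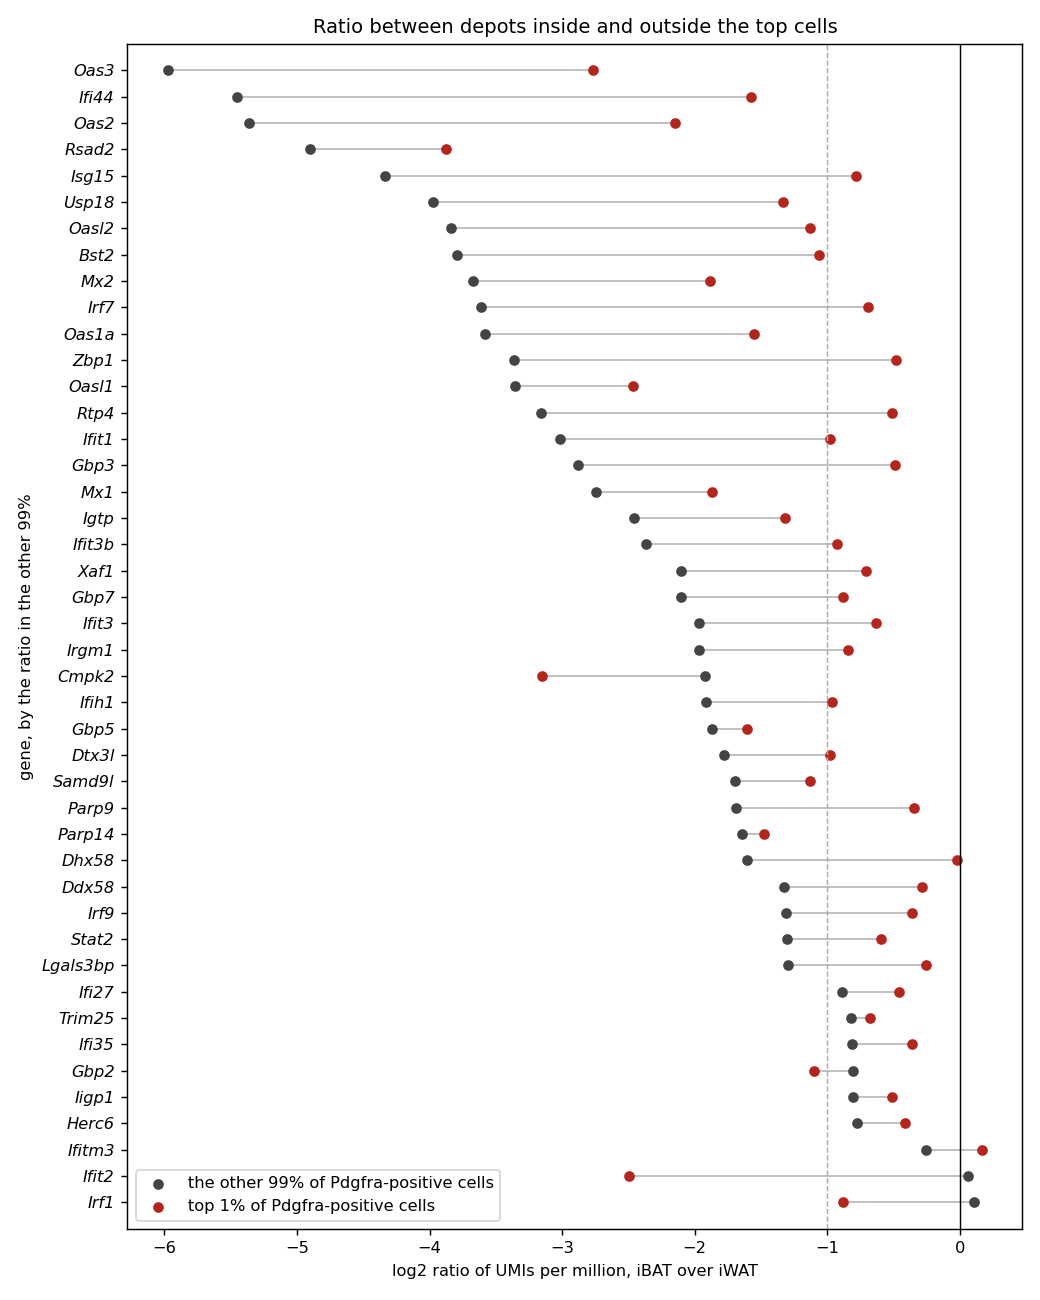
Log2 ratio of UPM, iBAT over iWAT, for each gene in the top 1% of Pdgfra-positive cells (red) and in the other 99% (dark grey), ordered by the latter, with lines at equality and at a 2-fold difference (dashed). Red points lie nearer to equality for 40 of 44 genes, and those of Ifit2, Irf1, Cmpk2 and Gbp2 lie further away.

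At an equal boundary for both libraries, cells with a high summed level were fewer in iBAT. A level of at least 5000 UPM summed over members was reached by 470 of 15973 iWAT cells (2.94%, interval 2.69 to 3.22) and by 117 of 23216 iBAT cells (0.504%, 0.417 to 0.604). At 10000 the counts were 45 (0.282%, 0.206 to 0.377) and 25 (0.108%, 0.0697 to 0.159). Without the abundant Ifitm3, Lgals3bp and Ifi27 the counts at 10000 were 33 and 14.

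Detection per cell was compared after each Pdgfra-positive cell had been thinned to 10000 UMIs, which left 14344 iWAT cells and 23216 iBAT cells and left out 1629 and 0 shallower ones. The median cell then held a UMI of 12 members in iWAT and 4 in iBAT, and the top cells of the thinned data held 28 and 20. The median member was seen in 18.7% of thinned iWAT cells and 5.35% of iBAT cells, while Irf1 was seen in 13.1% and 14.0%. Only 7 members were seen in over 50% of thinned iWAT cells, and 3 in over 50% of iBAT cells. A tonic call thus does not mean detection in most cells at this depth. Oas2, tonic in iWAT, was seen in 5.47% of thinned iWAT cells. Isg15 was seen in 73.4% of thinned iWAT cells and 7.34% of iBAT cells (83.7% and 14.1% without thinning). Bst2 was seen in 77.0% and 11.2% (87.2% and 25.3% without thinning). Ifitm3 was seen in 99.6% and 98.8% (98.9% and 99.9%). No class of these cultures is known to lack these genes, so no share could serve as the background from free RNA.

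Markers of other cell types were then set beside the top cells. The top cells and the rest had both passed the gate, which left out cells with 3 or more of the 8 markers of another class. It also required a UMI of Pdgfra, which is among the 10 stromal markers. Low sums for the gated classes were thus partly fixed by the gate, and they cannot tell whether the top cells held doublets. The 10 stromal markers summed to 34238 UPM in the iWAT top cells and 31622 in the rest, and to 19619 and 15172 in iBAT. The 8 immune markers summed to 33.3 and 32.9 in iWAT, where Tyrobp and Cd52 had no UMI in the top cells, and to 45.5 and 57.4 in iBAT, where Ptprc and Laptm5 had none. No immune marker was 2-fold higher in the top cells of either library. The 8 endothelial markers summed to 9.53 in the top cells and 12.8 in the rest in iWAT, and to 16.8 and 9.73 in iBAT, where 2 of them were 2-fold or more higher in the top cells and Cldn5 had no UMI. The 8 adipocyte markers summed to 82.0 in the iWAT top cells and 57.1 in the rest, and to 166 and 126 in iBAT, and Cidec and Lep had no UMI in the top cells of either library. The part of either list in the shares was not tested. Cycling genes such as Mki67 were lower in the top cells, at 81.3 UPM compared with 109 over all Pdgfra-positive cells of iWAT and 62.2 compared with 102 in iBAT.

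Other cell classes of the cultures were gated by markers, and each class was compared with the Pdgfra-positive cells of its own library. A gated cell held at least 3 of 8 markers of its class, no Pdgfra UMI and no second gate. The 1613 iWAT cells and 2757 iBAT cells that met more than one gate, or a gate and Pdgfra, were left out as possible doublets. A further 7592 iWAT cells (25.5% of kept cells) and 1115 iBAT cells (3.95%) met no gate and held no Pdgfra UMI. They count among all kept cells but belong to no class, and members summed to 2603 and 1046 UPM in them. Summed over the list, members stood at 2731 UPM in Pdgfra-positive, 2698 in epithelial, 3616 in immune, 3646 in Schwann and 2929 in mural cells of iWAT. In iBAT they stood at 1209 in Pdgfra-positive, 1393 in immune, 1753 in endothelial, 583 in Schwann, 300 in skeletal muscle and 986 in mural cells. These sums rest largely on abundant genes, and Ifitm3 alone gave 52.4% of the member UMIs in the Pdgfra-positive cells of iBAT. In iBAT Schwann cells the median log2 ratio of 36 members over Pdgfra-positive cells was −0.05, as it was over all features. Depots were also set side by side within classes. A member could enter with few UMIs in one library when its level in the other was high, so these counts are a description. Of the members that entered, 30 of 40 were 2-fold or more lower in iBAT in immune cells (11.1% of features), 28 of 29 in Schwann cells (5.66% of features) and 34 of 38 in mural cells (6.78% of features). Of those called, 10, 20 and 9 entered through their iWAT level alone. In Schwann cells Irf1, which did not enter, was at 13.1 UPM in the iWAT library and 14.1 in iBAT. Isg15, for example, was 9.62-fold lower in iBAT in immune cells (5.99 to 16.2), 12.9-fold in Schwann cells (9.93 to 16.8) and 15.8-fold in mural cells (12.3 to 20.7). In Schwann cells Isg15 was among the 20 that entered through their iWAT level alone, so it had to be lower in iBAT there.

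A member entered the comparison of a class with Pdgfra-positive cells if its level in either would give at least 10 UMIs in each. A member that entered only through the group where it was high had to differ, so the counts of each class are a description.

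Immune-gated cells, which were led by macrophage genes such as Lyz2 and C1qc, numbered 139 in iWAT and 141 in iBAT. In iWAT 16 of 44 members were 2-fold or more higher in them than in Pdgfra-positive cells (15% of features) and 5 were lower (17.8%), and 6 of the 16 entered through the immune level alone. In iBAT 19 of 39 were higher (13.8% of features) and 3 were lower (21.5%). Of the 19, 11 entered through the immune level alone, namely Cmpk2, Dhx58, Gbp3, Herc6, Irf7, Oas1a, Oas2, Oas3, Oasl1, Rsad2 and Usp18. The 6 in iWAT were Cmpk2, Gbp5, Herc6, Mx1, Mx2 and Oas3. Cmpk2, Dhx58, Gbp3, Gbp7, Herc6, Oas1a, Oas3, Oasl1, Parp14, Rsad2 and Trim25 were higher in both. Only Gbp7, Parp14 and Trim25 of these did not enter through the immune level alone in either library. The others had to be higher in at least 1 library, so the overlap is largely fixed by the rule of entry. Trim25 was at 121 UPM in immune and 47.3 in Pdgfra-positive cells of iWAT, and at 104 and 26.8 in iBAT. Oas1a, which entered in iBAT through the immune level alone, was 13.9-fold higher in the immune cells there (10.2 to 18.5), with a UMI in 41 cells. In contrast, Isg15 was at 65.7 in immune and 184 in Pdgfra-positive cells of iWAT, and Ifit1 was lower in immune cells of both libraries. Rsad2 was 19.9-fold higher in the immune cells of iWAT, but 67.4% of its UMIs there came from 1 cell, as did 73.9% of those of Cmpk2.

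Schwann-gated cells differed between the libraries. In the 59 such cells of iWAT 13 of 33 members were 2-fold or more higher than in Pdgfra-positive cells (14.7% of features) and 4 were lower (11.8%). Of the 13, Gbp2, Gbp3, Ifit2, Ifit3b, Igtp and Parp14 entered through the Schwann level alone, and the 4 lower members entered through the Pdgfra-positive level alone. Ifit3 was at 269 UPM in them and 26.5 in Pdgfra-positive cells (10.1-fold, 8.55 to 12.0), with a UMI in 43 of the 59 cells and 7.64% of UMIs in the highest cell. In the 488 Schwann-gated cells of iBAT 5 of 36 members were higher (10.3% of features) and 9 were lower (15.9%), 3 of the 9 through the Pdgfra-positive level alone. There Ifitm3 was at 120 and 634 and Lgals3bp at 17.8 and 132, while Parp14 was at 24.7 and 3.67 (6.74-fold, 5.79 to 7.81). Gbp3, Gbp7, Ifit2, Ifit3b and Parp14 were 2-fold or more higher in the Schwann-gated cells of both libraries, although 33.3% of the Ifit3b UMIs in those of iBAT came from 1 cell. Of these only Gbp7 did not enter through the Schwann level alone in iWAT. The others had to be higher there, so the overlap is largely fixed by the rule of entry.

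**Figure D5:**
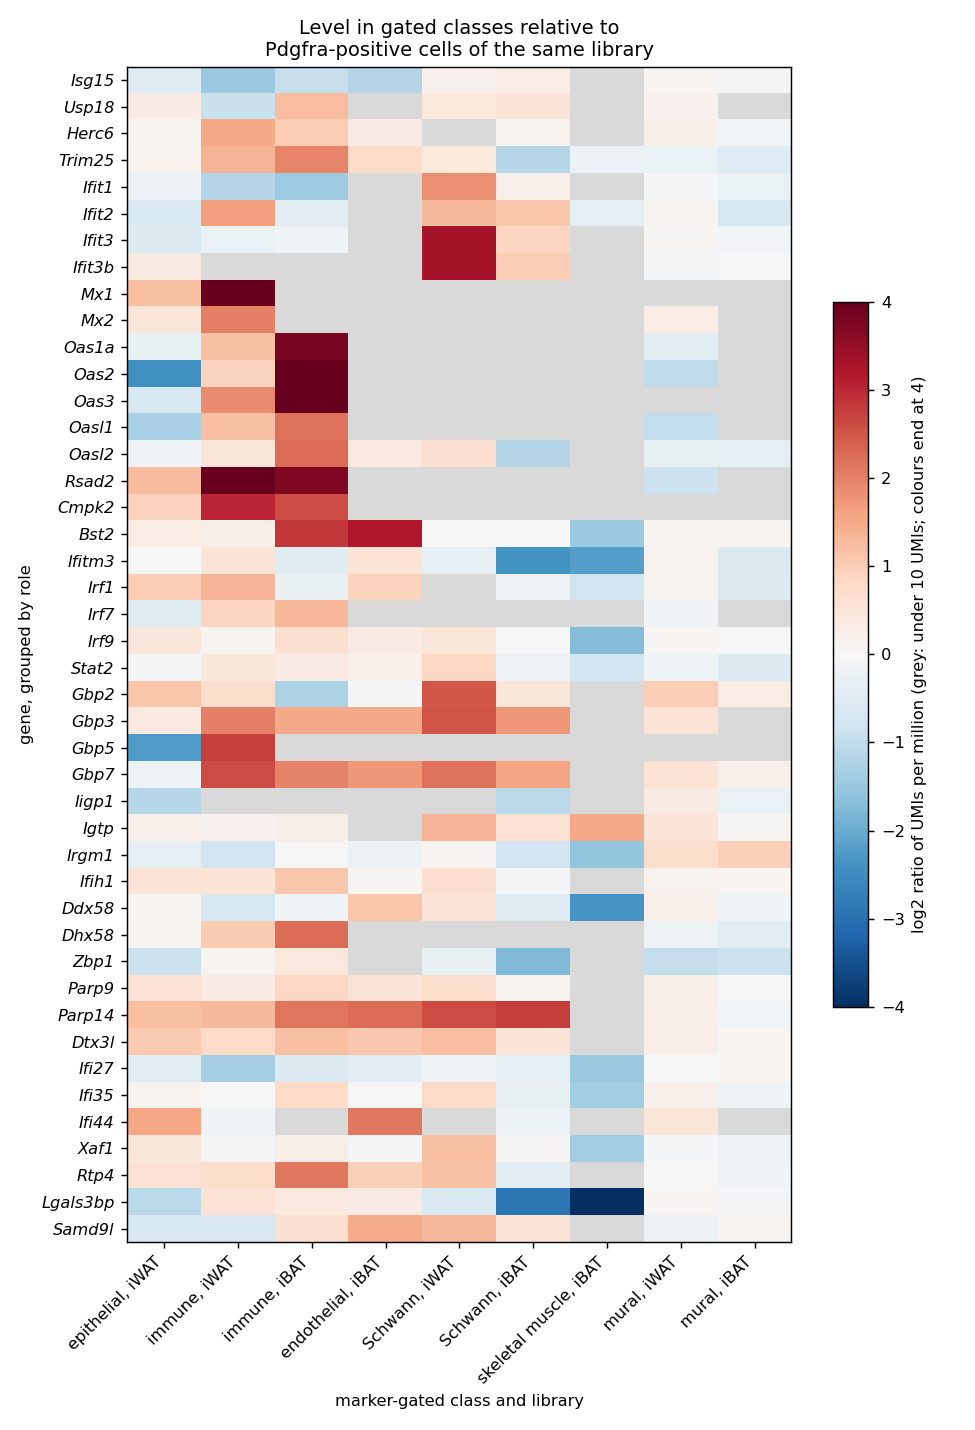
Log2 ratio of UPM of each gene (rows) in each marker-gated class (columns) over Pdgfra-positive cells of the same library, red for higher and blue for lower, with grey for fewer than 10 UMIs in the class. Colours end at a log2 ratio of 4. The skeletal muscle column is blue for most measured genes and both mural columns are pale.

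Skeletal muscle-gated cells, present in number only in iBAT (163 cells), had low levels of these genes. Of 29 members with enough UMIs 24 were 2-fold or more lower than in Pdgfra-positive cells (22.3% of features) and 1, Igtp, was higher (14.3%). Igtp entered through its muscle level alone, and 15 of the 24 through the Pdgfra-positive level alone. Lgals3bp was at 8.30 UPM in them and 132 in Pdgfra-positive cells, and Ifitm3 at 137 and 634. Endothelial-gated cells of iBAT (114 cells) had 8 of 30 members higher (12.2% of features) and 6 lower (15.5%). Gbp3, Ifi44 and Parp14 of the 8 entered through the endothelial level alone, and 5 of the 6 through the Pdgfra-positive level alone. Bst2 was at 129 UPM in them and 14.1 in Pdgfra-positive cells (9.14-fold, 8.14 to 10.2), and in iBAT immune cells it was at 101. In iWAT the Pdgfra-positive cells themselves held Bst2 at 176.

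Epithelial-gated cells, of which iWAT had 4096 and iBAT 0, had 7 of 44 members higher than Pdgfra-positive cells (14.0% of features) and 5 lower (17.8%). Ifi44 was at 116 UPM in them and 39.6 in Pdgfra-positive cells, and Irf1 at 30.3 and 15, while Oas2 was at 1.01 and 5.52. Mural-gated cells were close to Pdgfra-positive cells. In iWAT 0 of 42 members were 2-fold or more higher (3.25% of features) and 2 lower (2.32%), and in iBAT 0 of 35 were higher (4.78%) and 1 lower (3.98%).

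The wider pathway was described in Pdgfra-positive cells from lists of genes that are not members. Interferon genes were at or near 0. Of 10 ligand genes 5 were among the listed features in iWAT and 2 in iBAT, and only these could give a value. None reached 1 UPM, with 3 UMIs of Ifnb1, 2 of Ifnk and 1 of Ifne in iWAT, and 5 of Ifnk and 1 of Ifng in iBAT. Levels of the receptor genes were close between the libraries, with Ifnar1 at 26.1 and 22.5, Ifnar2 at 18.1 and 19.1, Ifngr1 at 46.0 and 43.1 and Ifngr2 at 97.7 and 84.2. These 4 genes had between 0.809% and 1.19% of their UMIs in the top cells. Of 9 sensing adaptors and kinases 0 passed 2-fold in either direction. Among these Tlr3, the endosomal sensor of double-stranded RNA, had 7.25% and 4.76% of its UMIs in the top cells.

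Of the 6 feedback inhibitors with a level, only Socs3 was 2-fold or more higher in iBAT (13.1 and 28.8 UPM), compared with 5.84% of features. None (0 of 6) was 2-fold or more lower, compared with 6.54%. Adar (28.9 and 15.5) and Trim21 (3.64 and 1.94) were lower in iBAT by 1.86-fold and 1.87-fold. Ptpn2 was at 41.5 and 38.9, Pias1 at 36.8 and 40.5 and Socs1 at 6.07 and 9.73. Socs1, which blocks JAK kinases, had 5.82% of its UMIs in the iWAT top cells and 1.33% in those of iBAT. Of 4 chemokines that interferon induces, 3 had enough UMIs for a share. Cxcl10, which attracts T cells, was at 10.1 UPM in iWAT and 1.35 in iBAT, with 82.6% and 86.1% of its UMIs in the top cells, although it had no part in the ranking. It was seen in 86 of the 160 iWAT top cells and 46 of the 232 iBAT top cells. Cxcl9, known for induction by interferon gamma, had 27.4% and 34.4% of its UMIs there, and Ccl5 21.99% and 38.2%. Few cells carried these shares. Cxcl9 had a UMI in 28 of the iWAT and 27 of the iBAT top cells, and Ccl5 in 7 and 9. The 10 cells with most UMIs of the gene held 38.6% in iWAT and 62.5% in iBAT of Cxcl10, 30.4% and 32.8% of Cxcl9, and 49.1% and 63.5% of Ccl5. Of 12 NF-kB response genes 4 were 2-fold or more lower in iBAT (Tnfaip3, Cxcl1, Cxcl2 and Il6), compared with 6.54% of features, and 3 were higher (Cxcl5, Ccl2 and Vcam1), compared with 5.84%. Their highest shares in the top cells were those of Ccl7 (3.07%) and Ccl2 (2.95%) in iWAT. Of 10 housekeeping genes 0 passed 2-fold, with a median log2 ratio of −0.11 and median shares of 0.946% and 0.872% in the top cells. B2m, the light chain of MHC class I and the one of these that interferon is known to induce, had 1.47% and 1.83%.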

How the data were processed

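Single-cell libraries (BD Rhapsody whole-transcriptome, 1 per depot) were analysed as deposited. Per the labels and the methods, the authors tagged, merged and sequenced the cultures and aligned and annotated the reads on a cloud pipeline. The submitters' processing notes name the build mm39 and Seurat 5.0.0. The annotation, the use of strand and the treatment of reads with several matches are not given in the sources used here. The deposited matrices hold raw UMI counts, and no scaling had been applied to them. The authors' feature lists gave the gene symbols.

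Cells with more than 200 and fewer than 7500 genes and under 30% mitochondrial UMIs were kept, as in the study's methods. Counts were summed over cells and divided by summed UMIs (UMIs per 1000000, UPM). Exact Poisson, binomial (Clopper-Pearson) and conditional intervals at 95% cover counting error only. No doublet caller was run. Cells under 2 gates were left out of the classes. Each library pools 4 treatments with no tag per cell in the files used here and counted as 1 sample. No test was made, and p-values are absent for that reason. A feature entered a comparison between depots with 1 UPM in either library, and a comparison of classes with 10 UMIs observed or implied on both sides. Depth per kept library was 501759241 and 791392741 UMIs.

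The members, lists and rules were chosen with earlier results of these data known. Every member was described by role. Intervals went to the 10 members with the largest ratio between depots among those at 5 UPM or more, and, per library, to the 5 highest and 5 lowest shares in the top cells, with further members added where a contrast was described. Coordinates and promoters came from GENCODE M39 on GRCm39, in which all 44 members were found. The last 500 bases of each canonical transcript were searched for 31-base words found in other genes. Python 3.11.15, numpy 2.4.6, scipy 1.17.1 and pandas 2.3.3 were used, and the routines were tested on simulated data. A gene of the pathway lists is not reported here.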

Additional observations from a re-analysis of the deposited data

Results flagged for a closer look

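For 4 members the level in a gated class relative to the Pdgfra-positive cells of the same library was at least 1.5-fold higher in one library and at least 1.5-fold lower in the other, with counting intervals on opposite sides of equality. These were 3 of 39 members with more than 3 UMIs in immune-gated cells of both libraries, where 0.526% of 11221 features met the same rule, and 1 of 33 in Schwann-gated cells, where 0.408% of 9552 features did. In mural-gated cells 0 of 37 members and 0.195% of 12851 features met it. The difference between the libraries was not tested, since each depot was 1 library. Oasl2 was 1.59-fold the Pdgfra-positive level in Schwann-gated cells of iWAT (1.25 to 1.99) and 0.447-fold in those of iBAT (0.294 to 0.650). Gbp2 was at 1.64-fold in immune-gated cells of iWAT (1.21 to 2.16) and 0.417-fold in those of iBAT (0.222 to 0.714). The ratios of Usp18 and Samd9l went the opposite way in immune-gated cells. Usp18 was at 0.544-fold in iWAT (0.349 to 0.811) and 2.34-fold in iBAT (1.33 to 3.81), and Samd9l at 0.629-fold (0.465 to 0.833) and 1.60-fold (1.25 to 2.02). Neither gene had a higher immune-gated level in iBAT. Immune-gated Usp18 was at 14.3 UPM in iWAT and 5.20 in iBAT, and Samd9l at 29.3 and 23.4. Pdgfra-positive levels were 26.3 and 2.22 for Usp18, and 46.5 and 14.6 for Samd9l. The depot gap of both was thus wider in Pdgfra-positive cells, whereas that of Oasl2 and Gbp2 was wider in the gated class. Of the 16 Usp18 UMIs in the immune-gated cells of iBAT, 37.5% came from 1 cell, and of the Oasl2 UMIs in the Schwann-gated cells of iBAT, 33.3% did.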

How the results depend on the processing

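No paired analysis was possible because each depot had 1 library and no result came from a test. With 1 library per depot, leaving out a replicate was not possible either. Across 7 alternatives (another cell filter, 2 other scalings, 2 other cell sets, 2 other filters on low values) the count of members 2-fold or more lower in iBAT ranged from 30 to 36, of 38 to 44 tested, and the count higher stayed at 0. The median log2 ratio was −1.90 with median-of-ratios scaling, −1.97 without the top 1% of Pdgfra-positive cells and −1.76 with a filter at 5 UPM. The calls in the top cells depended on where the top was set. With the top 0.5% there were 6 confined and 15 tonic members in iBAT, and with the top 2% there were 16 confined and 5 tonic members in iBAT and 11 tonic members in iWAT, since more or fewer cells count as top. After thinning to 10000 UMIs, 6 members were confined in iBAT, of the 39 that still had 100 UMIs, and 5 of 43 in iWAT. The confined count in iWAT ranged from 4 to 7 over 9 alternatives. Ranking without Ifitm3, Lgals3bp and Ifi27, chosen after seeing the data, kept 144 of 160 iWAT top cells and 198 of 232 iBAT top cells and gave 6 and 12 confined members. The summed level in Pdgfra-positive cells of iWAT was 2744 under the other cell filter, 2750 with 2 Pdgfra UMIs, 2712 with a gate of 2 markers and 2751 without the deepest 5% of cells. In iBAT it was 1214, 1200 and 1217 under the last 3 of these.

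Depth limits the sparse members. Mx1, Oas2, Oas3, Mx2 and Gbp5 rest on fewer than 300 UMIs each over all iBAT cells, and Mx1 on 123 UMIs in Pdgfra-positive cells of iWAT. Of the 44 members, 6 share 20% or more of the words of their 3′ end with other genes (Ifit3, Ifit3b, Oas1a, Oas3, Ifitm3 and Irf9), and how such reads were counted is not given in the sources used here. Another limit would hold for the 21 members that overlap an exon on the opposite strand if the counting ignored strand, which is not given either. Exons of Herc6, Irf9, Gbp7, Igtp, Parp14 and Rtp4 overlap exons of another gene on the same strand. Igtp overlaps Irgm2 and Irf9 overlaps Rnf31, and counting by strand would not separate such reads.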

Other observations

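Genes outside the list also had large shares of their UMIs in the top 1% of Pdgfra-positive cells. Among genes with at least 100 UMIs, the highest shares after Cxcl10 in iWAT were those of Ifi206 (39.9%), Phf11a (32.7%), Gm4841 (30.7%) and Ifit1bl1 (29.1%). In iBAT they were those of Phf11b (38.9%), Ccl5 (38.2%), Tgtp2 (37.5%) and Tgtp1 (36.8%). Tgtp1 and Tgtp2 are T-cell-specific GTPases of the immunity-related GTPase family, known for induction by interferon. Cd274, the checkpoint ligand PD-L1, had 13.6% of its 933 UMIs in the iWAT top cells. These genes were chosen after their values were seen. Sprr1a, a gene of the cornified envelope of keratinocytes, had 7.96% of its 7514 UMIs in the same iWAT cells.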
